A study of Mus musculus with 16 samples.

Results

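The genes described here are 34 genes of oligodendrocytes and their myelin, read in the prefrontal cortex of mice in which β-catenin had been raised or lowered in neurons. They were taken by name from a table of 23284 genes, and all 34 were found and had a mean of at least 0.5 FPKM (fragments mapped to a gene, scaled by the length of its transcript and the size of the library) over the 16 libraries. By their known roles, 18 are structural and membrane proteins of myelin and of the oligodendrocyte, 8 are enzymes or take part in transport, 5 are transcription factors of the lineage and 3 mark precursor cells. The libraries came from 4 APC cKO, 4 Bcat cOE, 4 APC/Bcat cKO and 4 Control mice. In APC cKO mice (APC fl/fl) both copies of Apc, a scaffold of the complex that degrades β-catenin, were floxed. In Bcat cOE mice (ctnnb1 fl(ex3)/+) 1 copy of Ctnnb1, the β-catenin gene, was floxed around the segment that marks the protein for degradation, and its loss leaves a stable protein. APC/Bcat cKO mice were APC fl/fl and ctnnb1 fl/fl. All 3 lines carried the same CamKIIα-Cre driver, which acts mostly in excitatory neurons of the forebrain, so the oligodendrocytes themselves were not the cells that the driver targets. Controls were littermates without Cre, pooled over the lines. The mice were of both sexes and between 2 and 3 months old, and the study's experiments left out APC/Bcat cKO mice with hydrocephaly. By Xist and Y-linked genes, Control replicate 1 and APC cKO replicate 1 were female and all other libraries male. No group carried the driver without a floxed allele, so in every comparison with controls the driver and the recombined alleles cannot be told apart, whereas APC cKO and APC/Bcat cKO mice both carried it.

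Oligodendrocytes wrap axons of the central nervous system in myelin, a stack of membrane that insulates the axon and also supplies it with metabolites. Precursor cells, which carry the receptor Pdgfra and the proteoglycan Cspg4, persist in the adult cortex and differentiate through a stage marked by Gpr17 into cells that express the myelin proteins. Olig1, Olig2, Sox10, Nkx2-2 and Nkx6-2 are the transcription factors that specify the lineage or switch on the myelin genes. Compact myelin is held together by Mbp, and its lipids are made by enzymes such as Ugt8a and Fa2h. Wnt and β-catenin signaling within the lineage is known to delay differentiation, and the activity of neurons is known to affect myelination. A piece of tissue gives the level of these transcripts per total RNA, so that fewer oligodendrocytes and less RNA per oligodendrocyte cannot be told apart here.

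The DNA before the start sites is shown for 4 genes, to let the reader see regions from which several of the transcripts that varied together are driven. Mag, Qdpr and Mobp were among the genes with the smallest adjusted p in limma between APC cKO and APC/Bcat cKO mice, and Pdgfra differed in the opposite direction. Each sequence holds the 250 bases before the start given by RefSeq on build GRCm38.p6 (mm10), read on the strand of the gene. Capitals mark the letters ACAAAG, a core that SOX proteins bind, or CTTTGT, the same letters on the other strand.
Mag, chr7:30914864-30915113, minus strand, the first of 3 starts: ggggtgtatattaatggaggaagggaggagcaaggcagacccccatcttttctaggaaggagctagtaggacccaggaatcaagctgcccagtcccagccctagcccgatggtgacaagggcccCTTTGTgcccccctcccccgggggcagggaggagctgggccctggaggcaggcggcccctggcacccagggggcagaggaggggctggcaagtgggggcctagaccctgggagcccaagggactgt
Mobp, chr9:120149492-120149741, plus strand: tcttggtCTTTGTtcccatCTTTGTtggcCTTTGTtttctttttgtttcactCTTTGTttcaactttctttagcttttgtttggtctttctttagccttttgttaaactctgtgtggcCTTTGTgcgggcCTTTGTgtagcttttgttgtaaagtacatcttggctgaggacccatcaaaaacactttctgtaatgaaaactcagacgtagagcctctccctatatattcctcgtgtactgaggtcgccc
Qdpr, chr5:45450230-45450479, minus strand: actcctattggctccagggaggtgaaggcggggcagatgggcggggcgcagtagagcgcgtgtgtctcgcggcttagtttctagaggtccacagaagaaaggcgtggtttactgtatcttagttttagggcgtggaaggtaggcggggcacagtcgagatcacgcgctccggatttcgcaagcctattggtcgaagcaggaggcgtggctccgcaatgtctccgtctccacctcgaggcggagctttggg
Pdgfra, chr5:75152001-75152250, plus strand: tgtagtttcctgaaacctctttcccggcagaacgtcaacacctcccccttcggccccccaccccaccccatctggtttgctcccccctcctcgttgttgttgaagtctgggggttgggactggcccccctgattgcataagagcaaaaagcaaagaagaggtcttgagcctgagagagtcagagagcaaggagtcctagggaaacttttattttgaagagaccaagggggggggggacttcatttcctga
The Mobp stretch held the SOX letters at 6 places, from position -243 to -120 counted from the start. The Mag stretch held them at 1 place, position -126. Those of Qdpr and Pdgfra held none. RefSeq promoters were given for 25 of the 34 genes, with 34 starts in all. The 9 without an entry were Mbp, Sox10, Olig1, Gpr17, Fa2h, Car2, Enpp2, Trf and Bcas1. The SOX letters occurred in 9 of the 34 stretches (26.5%), against 16.5% of all 32851 stretches in the table, and the 9 belonged to Tspan2, Mag, Plekhb1, Mobp, Cnp, Opalin and Gjb1. CAGCTG, an E-box of the kind that OLIG2 binds, occurred in 6 of the 34 (17.6%) against 13.0% of all stretches. TTCAAAG, a core that the β-catenin partners TCF and LEF bind, occurred in 1, that of Gjb1 (2.94%), against 4.46% of all. Both strands were searched. ACAAAG and TTCAAAG end in the same letters, CAAAG, but differ in the letter before them, so no CAAAG was counted for both. Only these spellings were searched. TCF and LEF sites spelled otherwise, also ones that hold ACAAAG, were thus not counted as theirs, and the SOX letters are not particular to SOX proteins. These are matches of letters in 1 window and do not show that a factor binds there.

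The level of Apc was 43.9 ± 4.21 FPKM in control, 44.5 ± 5.11 in Bcat cOE, 11.7 ± 3.88 in APC cKO and 10.05 ± 2.30 in APC/Bcat cKO mice (SD, n = 4 each). Apc thus separated the genotypes with floxed Apc from the others, but not the genotypes within each pair. Ctnnb1 lay between 150.9 and 182 FPKM in every library, a value per gene does not show which exons a transcript holds, and the state of Ctnnb1 given by the labels was not checked by it. Markers of striatal projection neurons, which the prefrontal cortex should lack, summed to between 59.5 and 383 FPKM over 7 genes in a library, with wide ranges within each genotype. In APC/Bcat cKO replicate 4 genes with transcripts over 6000 bases lay 0.46 lower on the log2 scale, relative to the 16-library mean, than genes with transcripts under 2000 bases. In APC/Bcat cKO replicate 2 they lay 0.24 lower, and over the other 14 libraries this gap ran from -0.07 to 0.21. The longest annotated transcripts of the 34 genes run from 1228 to 8121 bases, with a median of 2786.5, against 3419 over the genes tested. The files give no read counts, so depth is unknown, and 5726 to 6649 genes were listed at 0 per library.

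In control cortex the 34 genes spanned a wide range of levels. FPKM is a value per length of transcript, so levels can be set beside each other. Mbp was the highest at 335 ± 51.03 FPKM (SD, n = 4) and ranked 205 among all genes of the table. Next came Car2, a carbonic anhydrase that balances pH and ions, at 105 ± 14.2, and Qdpr, which recycles the cofactor tetrahydrobiopterin, at 98.4 ± 1.80. Car2 and Qdpr did not differ beyond their spread. The lowest was Nkx2-2 at 0.646 ± 0.167, and the median of the 34 control means was 15.7. In all, 23 of the 34 were at 10 FPKM or more and 33 at 1 or more. Precursor genes were low beside the myelin genes, with Pdgfra at 8.997 ± 1.02, Gpr17 at 8.74 ± 1.47 and Cspg4 at 1.34 ± 0.141. Among the transcription factors Olig1 was the highest at 29.6 ± 1.44, above Olig2 at 8.29 ± 0.744 and Sox10 at 7.98 ± 0.994, which did not differ beyond their spread.

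Between control mice these genes varied more than the median gene did. Their coefficient of variation over the 4 controls had a median of 13.7%, against 9.13% over the 13978 genes tested. It ran from 1.83% for Qdpr to 29.3% for Nkx6-2. Control replicate 3 had the lowest value of Mbp, Mobp, Mog and Mal, and control replicate 4 the highest of Mbp, Mog, Cnp and Ermn, a protein that links the myelin membrane to actin.

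Of the 6 pairs of genotypes, APC cKO and APC/Bcat cKO mice lay farthest apart in the median of these genes. Mean levels of Mbp, Mag and Mobp in APC cKO mice were 67.3%, 68.7% and 69.8% of those in APC/Bcat cKO mice, and the mean of Pdgfra was 118%. This comparison asks what differs when APC is lost with β-catenin free to accumulate and when β-catenin is removed with it. Of the 34 genes, 32 had a lower mean log2 level in APC cKO mice, and the median of the 34 differences was -0.29, against -0.00083 over all genes tested. In limma 0 of the 34 reached an adjusted p under 0.05, where 0.215% of all genes did. At an unadjusted p under 0.05, 19 were lower, where 6.13% of all genes were, and 1 was higher, where 4.15% were. The 4 APC cKO values all lay below the 4 APC/Bcat cKO values in 14 of the 34, and 3.43% of all genes were separated in this way.

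Mag, an adhesion protein of the innermost myelin layer that faces the axon, had the smallest adjusted p. Its levels were 22.7, 25.6, 23.5 and 23.97 FPKM in the 4 APC cKO mice and 33.5, 34.7, 30.1 and 41.02 FPKM in the 4 APC/Bcat cKO mice. No values overlapped, and the APC cKO mean was 68.7% of the APC/Bcat cKO mean. The log2 difference was -0.53 (standard error 0.10, adjusted p = 0.0560). Controls, at 26.2, 31.5, 26.001 and 30.2 FPKM, lay above every APC cKO mouse and partly within the range of APC/Bcat cKO mice.

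Mbp, the protein that zips the cytoplasmic faces of the myelin membrane together, gave 238, 284, 289 and 223 FPKM in APC cKO and 364, 389, 356 and 427 FPKM in APC/Bcat cKO mice. Every APC cKO value was below every APC/Bcat cKO value, with a log2 difference of -0.58 (standard error 0.12, adjusted p = 0.0609). The Bcat cOE mice were at 301, 354, 264 and 335 FPKM and the controls at 316, 343, 281 and 401, so that both groups reached from the APC cKO range to near or into that of APC/Bcat cKO mice. Mobp, a second small basic protein of compact myelin, was at 23.1, 26.3, 29.8 and 23.2 FPKM in APC cKO and at 35.97, 37.2, 35.6 and 37.9 in APC/Bcat cKO mice. The 4 APC/Bcat cKO mice were close to each other and above all APC cKO mice, with a log2 difference of -0.52 (standard error 0.12, adjusted p = 0.112). Gjb1, a connexin that forms gap junctions in myelin, was at 4.04, 4.54, 4.41 and 3.27 in APC cKO and 5.71, 6.10, 6.83 and 6.23 FPKM in APC/Bcat cKO mice, again without overlap. Its log2 difference was -0.61 (standard error 0.14, adjusted p = 0.112).

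**Figure D1:**
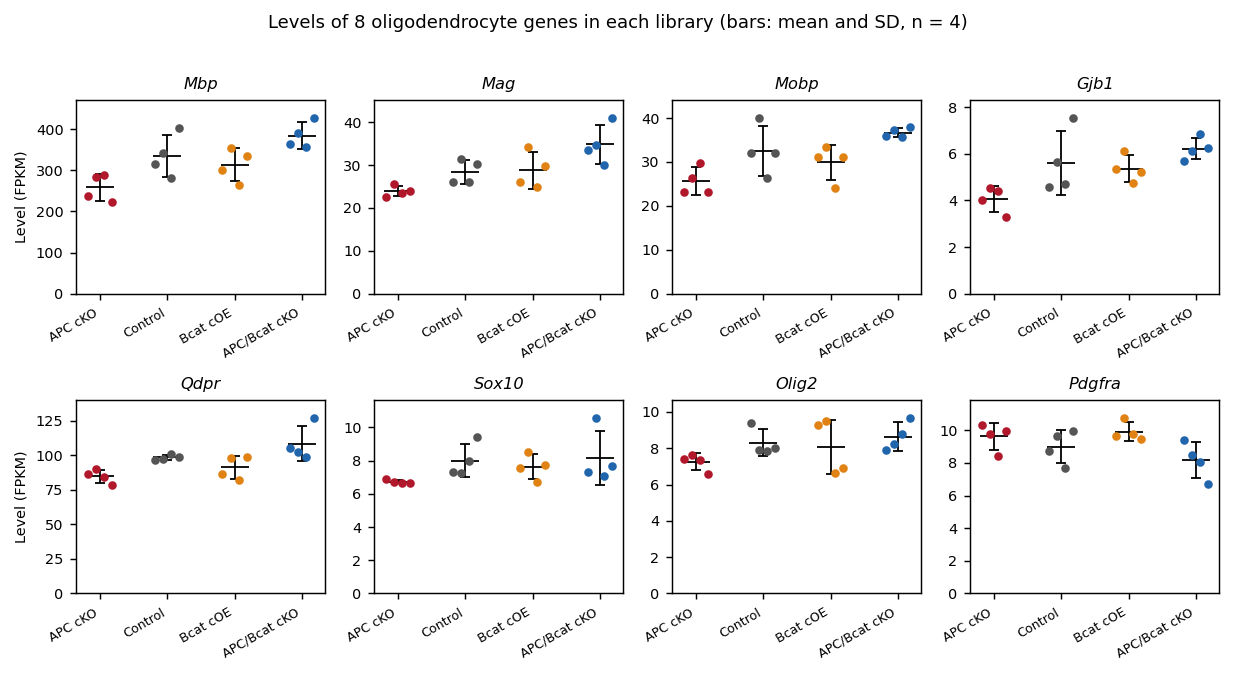
Levels of 8 of the genes (y axis, FPKM, from 0) in each library by genotype (x axis), with points for single mice and bars for the mean and SD of 4 mice. Mbp, Mag, Mobp, Gjb1, Qdpr, Sox10 and Olig2 in APC cKO mice all lie below APC/Bcat cKO mice, while Pdgfra has its lowest value, 6.71 FPKM, in an APC/Bcat cKO mouse.

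Other structural genes also had lower means in APC cKO than in APC/Bcat cKO mice. Bcas1, which marks oligodendrocytes that are starting to myelinate, had a log2 difference of -0.56 (standard error 0.13, adjusted p = 0.113), with 11.5 to 15.8 FPKM in APC cKO and 18.1 to 22.02 in APC/Bcat cKO mice. Mog, on the outer surface of myelin, was at 16.1 to 19.9 against 24.4 to 32.9998 FPKM and differed by -0.58 (standard error 0.15, adjusted p = 0.174). Mal, a proteolipid of membrane traffic, differed by -0.47 (standard error 0.12, adjusted p = 0.172), and Cldn11, which forms the tight junctions of central myelin, by -0.44 (standard error 0.11, adjusted p = 0.141). Cnp, an enzyme of the cytoplasmic channels of myelin, had log2 -0.35 with ranges of 63.5 to 73.8 against 78.8 to 95.4 FPKM. In Ermn the APC cKO mice were at 7.92, 11.4, 10.1 and 6.99 FPKM and the APC/Bcat cKO mice at 14.6, 12.7, 14.03 and 11.9, without overlap.

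Not all structural genes were separated. Hapln2, a matrix protein of the nodes of Ranvier, had the largest log2 difference at -0.66 (standard error 0.18, adjusted p = 0.209), but APC cKO replicate 3, at 5.11 FPKM, lay within the APC/Bcat cKO range of 4.82 to 6.06. Opalin, a membrane protein of oligodendrocytes, overlapped widely, at 7.20, 12.9, 7.997 and 10.9 FPKM in APC cKO and 14.9, 7.64, 12.6 and 16.6 in APC/Bcat cKO mice. Tspan2, a tetraspanin of early myelinating cells, was at 12.4 to 16.5 against 15.9 to 21.2 FPKM, and Gpr37, a receptor of mature oligodendrocytes, at 9.72 to 12.3 against 12.1 to 15.1, both with overlap. Plekhb1, at 76.8 to 95.7 against 87.97 to 112 FPKM, was among the most abundant of these genes and overlapped as well. Of the 18 structural genes 13 were lower at an unadjusted p under 0.05, where 6.13% of all genes were. The other 5 were Opalin, Plekhb1, Cntn2, Gsn and Cd9. Cntn2, an adhesion protein, was at 11.2 to 13.1 against 11.1 to 14.9 FPKM, and Gsn, which severs actin filaments, at 18.7 to 23.6 against 20.3 to 26.8. Cntn2, Gsn and Cd9 are also made by neurons or other cells of the brain, and Cd9 was the only structural gene with a higher mean in APC cKO mice, at 47.1 ± 4.53 against 44.3 ± 5.18 FPKM (SD, n = 4 each).

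All 8 enzyme and transport genes had a lower mean log2 level in APC cKO than in APC/Bcat cKO mice, with differences from -0.43 to -0.13. Of these, 4 were lower at an unadjusted p under 0.05, where 6.13% of all genes were. Qdpr was at 86.3, 90.1, 83.995 and 78.4 FPKM in APC cKO and 105, 103, 98.6 and 127 in APC/Bcat cKO mice. The ranges did not overlap, and the log2 difference was -0.35 (standard error 0.08, adjusted p = 0.0919). Fa2h, which hydroxylates the fatty acids of myelin lipids, was also separated, at 4.62 to 6.12 against 6.41 to 7.52 FPKM, with a log2 difference of -0.43 (standard error 0.14, adjusted p = 0.295). Aspa, which breaks down N-acetylaspartate and frees acetate for lipid synthesis, and Car2 had an unadjusted p of 0.0253 and 0.0425, with Aspa at 8.88 to 13.1 against 12.1 to 14.1 FPKM. Ugt8a, which makes galactosylceramide, Trf, the iron carrier transferrin, Enpp2, the enzyme autotaxin, and Enpp4 overlapped between the groups. For Ugt8a the means were 11.9 ± 1.099 and 13.1 ± 0.766 FPKM, and for Trf 52.4 ± 11.04 and 62.2 ± 2.90 (SD, n = 4 each). Enpp2 was at 73.9 to 88.97 against 80.9 to 99.3 FPKM and Enpp4 at 5.72 to 8.18 against 7.07 to 8.29.

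The 5 transcription factors also had lower means in APC cKO mice, with log2 differences from -0.31 to -0.12. Sox10, which drives myelin gene transcription throughout the lineage, was at 6.87, 6.69, 6.68 and 6.66 FPKM in APC cKO and 7.32, 10.6, 7.05 and 7.69 in APC/Bcat cKO mice. The APC cKO mice were nearly alike and lay below all mice of the APC/Bcat cKO and Control groups, although the log2 difference from APC/Bcat cKO mice was -0.26 (standard error 0.12, adjusted p = 0.473). For Olig2, which specifies the lineage, the values were 7.41, 7.65, 7.35 and 6.56 and 7.89, 8.20, 8.79 and 9.68 FPKM, without overlap, and the log2 difference was -0.25 (standard error 0.11, adjusted p = 0.475). Nkx2-2, at 0.514 to 1.70 FPKM over all libraries, and Nkx6-2, at 2.62 to 3.22 against 2.64 to 3.81, overlapped widely. Olig1 had means of 28.05 ± 2.21 and 30.6 ± 2.11 FPKM (SD, n = 4 each).

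Of the 3 precursor genes 2 had lower means in APC cKO mice and 1, Pdgfra, a higher one. Pdgfra, the receptor for the growth factor that keeps precursors dividing, was at 10.3, 9.80, 8.43 and 9.95 FPKM in APC cKO and 9.39, 8.48, 8.08 and 6.71 in APC/Bcat cKO mice. Its mean was higher in APC cKO mice, by a log2 difference of 0.24 (standard error 0.10, adjusted p = 0.451), and the ranges overlapped. APC/Bcat cKO replicate 4, in which long transcripts were low, had the lowest value of this gene, whose longest transcript has 6834 bases. Without that library the log2 difference was 0.15 (adjusted p = 0.849). Cspg4 and Gpr17 gave means of 1.33 ± 0.167 and 9.03 ± 0.939 FPKM in APC cKO and 1.48 ± 0.131 and 9.36 ± 1.11 in APC/Bcat cKO mice (SD, n = 4 each).

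**Figure D2:**
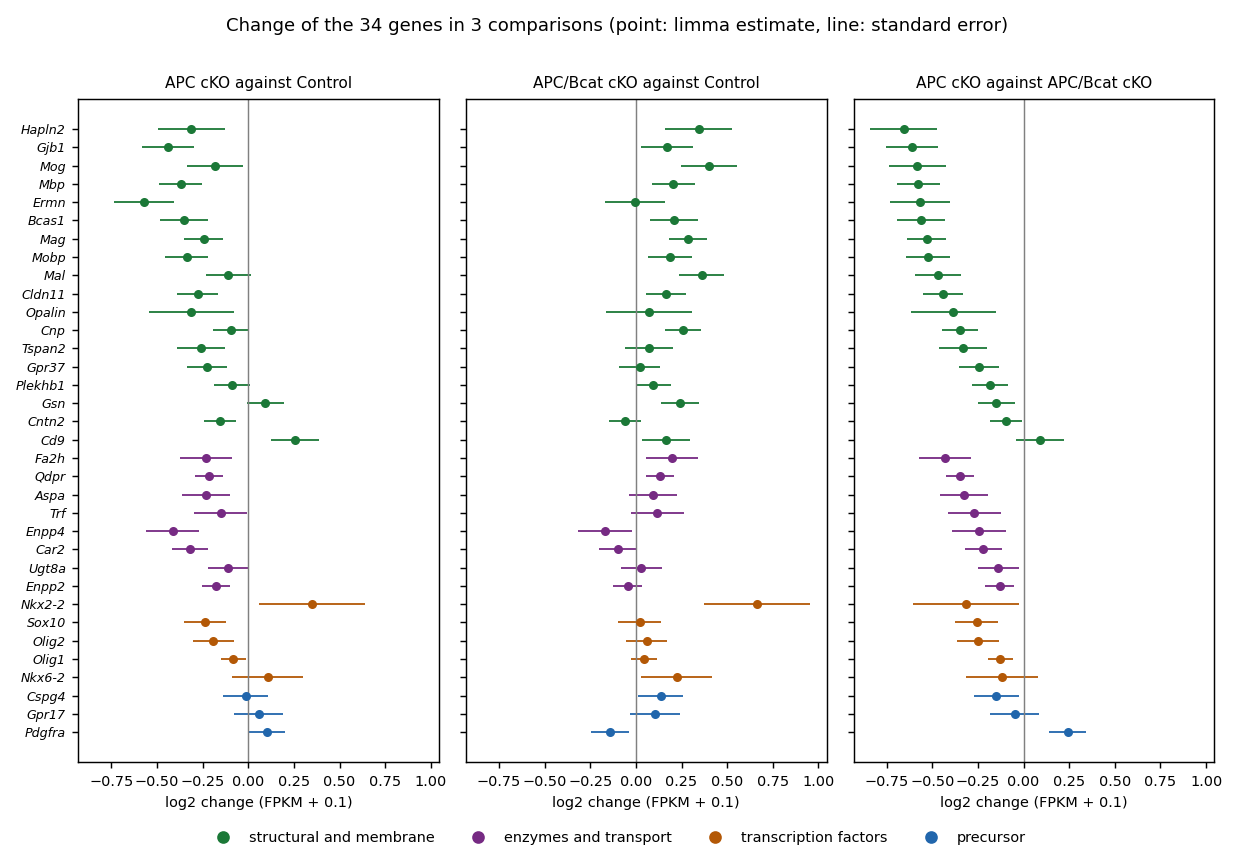
Change of each of the 34 genes (rows, colored by role) in 3 comparisons, as limma's log2 difference on FPKM + 0.1 (x axis), with a line for 1 standard error on each side. In the comparison of APC cKO with APC/Bcat cKO mice, 32 of the 34 points lie below 0, with Cd9 and Pdgfra above it, and no gene reached an adjusted p under 0.05 in any of the 3.

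Against controls the same genes were mostly lower in APC cKO mice, by less. Of the 34, 28 had a lower mean log2 level, with a median of -0.20, and the median of all genes was -0.0042. No gene of the 34 passed at an adjusted p of 0.05, where 0.0429% of all genes did. At an unadjusted p under 0.05, 11 were lower (background 5.19%) and 0 were higher (4.82%), and the smallest adjusted p was 0.310. The 11 were made up of 7 of the 18 structural genes and 4 of the 8 enzymes, with no transcription factor or precursor gene among them. The 11 became 6 without Control replicate 4 and 17 without Control replicate 3.

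Ermn had the smallest p. Its control values were 11.8, 13.4, 10.9 and 18.3 FPKM, and the log2 difference of APC cKO mice from them was -0.57 (standard error 0.17, adjusted p = 0.310). APC cKO replicate 2, at 11.4 FPKM, lay above control replicate 3, so the groups overlapped. For Mbp the APC cKO mean was 77.1% of the control mean and the log2 difference was -0.37 (standard error 0.12, adjusted p = 0.320). Here 2 of the 4 APC cKO mice lay above the lowest control, at 281 FPKM. In Mobp the difference was -0.34 (standard error 0.12, adjusted p = 0.367). Car2 was at 90.6, 86.3, 87.9 and 69.7 FPKM in APC cKO and 84.2, 117, 108 and 109 in control mice, with a log2 difference of -0.32 (standard error 0.10, adjusted p = 0.316), and control replicate 1 alone fell into the APC cKO range.

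In 5 of the 34 genes all 4 APC cKO values lay below all 4 controls, and 2.98% of all genes were separated in this way. These were Mag, Gjb1, Qdpr, Sox10 and Olig2. For Gjb1 the highest APC cKO value, 4.54 FPKM, was only just below the lowest control, 4.55, and the log2 difference was -0.44 (standard error 0.14, adjusted p = 0.329). Controls were most alike in Qdpr, at 96.5, 97.6, 100.8 and 98.6 FPKM, and APC cKO mice differed from them by -0.22 (standard error 0.08, adjusted p = 0.367). For Enpp4 the difference was -0.42 (standard error 0.15, adjusted p = 0.371), with APC cKO replicate 3, at 8.18 FPKM, among the controls. Cd9, a tetraspanin found in many cell types, had the largest difference in the other direction among the structural genes, 0.26 (standard error 0.13, adjusted p = 0.532), with 50.6, 44.4, 51.4 and 42.2 FPKM in APC cKO and 40.2, 44.2, 43.4 and 31.1 in control mice.

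APC/Bcat cKO mice had higher means than controls in 28 of the 34 genes. The median log2 difference was 0.13, and that of all genes 0.0031. At an adjusted p of 0.05 the count was 0 of 34, where 0.207% of all genes passed. At an unadjusted p under 0.05, 6 were higher, where 7.17% of all genes were. They were Mog, Mag, Cnp, Mal, Gsn and Nkx2-2. The count was 1 without APC/Bcat cKO replicate 4, in which long transcripts were low, 3 without Control replicate 3, and 4 without Control replicate 1 or APC/Bcat cKO replicate 2, and the median was 0.077 without Control replicate 3. In 0 of the 34 genes did all APC/Bcat cKO mice lie above all controls, where 2.98% of all genes did. Mal had the smallest adjusted p, with 47.9, 53.1, 33.1 and 44.5 FPKM in control and 61.8, 52.6, 49.1 and 63.7 in APC/Bcat cKO mice. The log2 difference was 0.36 (standard error 0.12, adjusted p = 0.278), and APC/Bcat cKO replicates 2 and 3 lay below the highest control. For Mog the difference was 0.40 (standard error 0.15, adjusted p = 0.289) and for Mag 0.29 (standard error 0.10, adjusted p = 0.281). Nkx2-2, a transcription factor of early differentiation, was at 0.888, 0.620, 0.563 and 0.514 FPKM in control and 0.880, 1.21, 0.689 and 1.70 in APC/Bcat cKO mice. Its difference was 0.66 (standard error 0.29, adjusted p = 0.331), at a level near the added 0.1 FPKM where small absolute steps give large ratios. This comparison and the one of APC cKO mice with controls share the same 4 control mice, so their results are not independent.

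Bcat cOE mice lay close to controls. Of the 34 genes, 19 had a higher and 15 a lower mean log2 level, with a median difference of 0.017. The smallest adjusted p was 0.946, so 0 of the 34 passed, where 0.0143% of all genes did. At an unadjusted p under 0.05, 2 were higher, Nkx2-2 and Nkx6-2, where 2.30% of all genes were. The count was 0 without Control replicate 3, Control replicate 4 or Bcat cOE replicate 2, and 1 without Control replicate 1, Control replicate 2 or Bcat cOE replicate 4. Leaving out single libraries gave medians from -0.06 to 0.08, so their sign depended on the mice. The log2 differences of Nkx2-2 and Nkx6-2 were 0.65 (standard error 0.29, adjusted p = 0.946) and 0.43 (standard error 0.19, adjusted p = 0.946). Nkx6-2 was at 2.75, 3.64, 2.79 and 1.69 FPKM in control and 3.25, 4.07, 2.83 and 4.37 in Bcat cOE mice, which overlapped. In 0 of the 34 genes did all Bcat cOE mice lie below all controls, where 1.62% of all genes did. Mbp had means of 335 ± 51.03 and 314 ± 39.4 FPKM (SD, n = 4 each), a difference smaller than either SD.

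Set against APC/Bcat cKO mice, Bcat cOE mice had lower means in 27 of the 34 genes, with a median of -0.06. None reached an adjusted p of 0.05 (background 0.229%), and 6 were lower (6.88%) and 1 higher (5.04%) at an unadjusted p under 0.05. The 6 became 10 without Bcat cOE replicate 2, 9 without APC/Bcat cKO replicate 3, 3 without APC/Bcat cKO replicate 4 and 2 without Bcat cOE replicate 3, and the median ran from -0.16 without Bcat cOE replicate 2 to -0.03 without Bcat cOE replicate 3. In 4 genes, Mbp, Mobp, Mal and Qdpr, all Bcat cOE mice lay below all APC/Bcat cKO mice, where 3.93% of all genes did. The smallest adjusted p was that of Qdpr, with 86.1, 98.2, 82.3 and 98.6 FPKM in Bcat cOE mice and a log2 difference of -0.24 (standard error 0.08, adjusted p = 0.217). Mal differed by -0.37 (standard error 0.12, adjusted p = 0.257). In Pdgfra all Bcat cOE mice, at 9.66, 10.8, 9.74 and 9.46 FPKM, lay above all APC/Bcat cKO mice, where 2.37% of all genes did, and the difference was 0.28 (standard error 0.10, adjusted p = 0.305).

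The 2 lines in which β-catenin was raised were also compared with each other. APC cKO mice had lower means than Bcat cOE mice in 31 of the 34 genes, with a median log2 difference of -0.21. The adjusted p was above 0.05 in all 34 (background 0.0429%), and 12 were lower at an unadjusted p under 0.05 (3.93%). The 12 became 3 without Bcat cOE replicate 2, 4 without APC cKO replicate 4, 5 without APC cKO replicate 1 or Bcat cOE replicate 4, and 4 with sex as a covariate. APC cKO replicate 1 was the only female library of these lines. The median was -0.13 without Bcat cOE replicate 2. Ermn had the smallest adjusted p, with Bcat cOE mice at 11.9, 15.8, 11.5 and 12.3 FPKM and a log2 difference of -0.51 (standard error 0.17, adjusted p = 0.457). Ermn and Gjb1 were the 2 genes without overlap between these lines, where 2.62% of all genes had none, and Gjb1 differed by -0.40 (standard error 0.14, adjusted p = 0.492).

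With the mean of both raised lines set against the mean of the controls and APC/Bcat cKO mice, 30 of the 34 genes were lower, with a median of -0.14. Again 0 of the 34 passed at an adjusted p of 0.05 (background 0.0572%), and 11 were lower (5.16%) and 1, Pdgfra, higher (3.68%) at an unadjusted p under 0.05. Qdpr had the smallest adjusted p, 0.240. For any difference among the 4 genotypes the smallest adjusted p was 0.152, that of Mag. Here 0 of the 34 genes passed (background 0.250%), and 14 had an unadjusted p under 0.05, as had 1674 (12%) of the 13978 genes. Over the 34 genes the APC cKO group had the lowest of the 4 mean levels in 28, and the APC/Bcat cKO group the highest in 24.

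Each role was also averaged within a library, as the mean deviation of its genes from their 16-library mean on the log2 scale. For the 18 structural genes these values were -0.30, -0.13, -0.10 and -0.31 in the 4 APC cKO mice and 0.22, 0.16, 0.10 and 0.27 in the 4 APC/Bcat cKO mice. Controls were at -0.04, 0.13, -0.19 and 0.15 and Bcat cOE mice at -0.03, 0.18, -0.20 and 0.09. APC cKO and APC/Bcat cKO mice were thus on opposite sides of 0, whereas control and Bcat cOE mice covered most of the space between them. The 8 enzyme and transport genes were at -0.32 to -0.05 in APC cKO and 0.06 to 0.11 in APC/Bcat cKO mice. The 5 transcription factors, at -0.18 to -0.01 and -0.10 to 0.33, and the 3 precursor genes, at -0.13 to 0.05 and -0.18 to 0.13, overlapped.

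**Figure D3:**
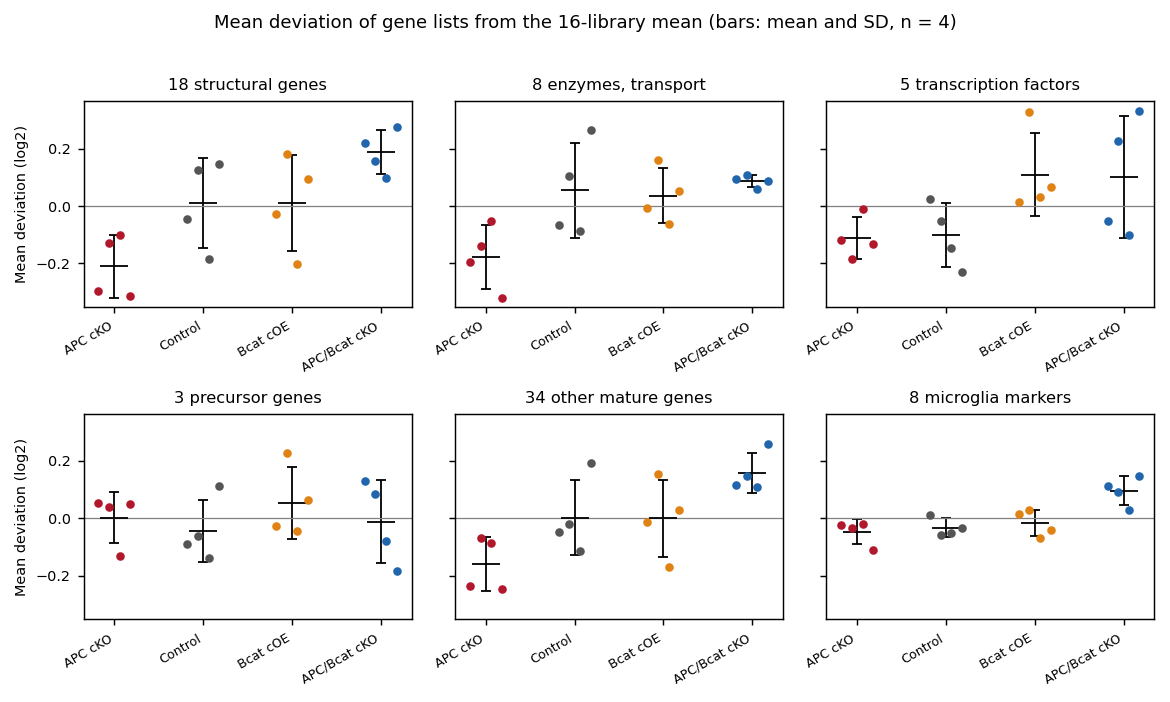
Mean deviation of 6 gene lists from their 16-library mean (y axis, log2) in each library by genotype (x axis), with bars for the mean and SD of 4 mice. The 18 structural genes lie between -0.31 and -0.10 in APC cKO mice and between 0.10 and 0.27 in APC/Bcat cKO mice, the precursor genes overlap, and the microglia markers lie between 0.03 and 0.15 in APC/Bcat cKO mice.

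Further genes of mature oligodendrocytes, which are not among the 34, showed a similar order. Of a list of 35 such genes 34 passed the filter, and in APC cKO against APC/Bcat cKO mice 31 were lower and 3 higher, with a median of -0.27. The smallest adjusted p was 0.0651, and 16 were lower at an unadjusted p under 0.05, where 6.13% of all genes were. Against controls 27 were lower in APC cKO mice (median -0.19) and 28 higher in APC/Bcat cKO mice (median 0.11). Apod, a lipid carrier of mature oligodendrocytes and other cells, had means of 59.2 ± 11.7 FPKM in APC cKO and 63.4 ± 14.8 in APC/Bcat cKO mice (SD, n = 4 each), closer than the spread.

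Other genes of precursor cells did not follow the myelin genes. Of 20 such genes 19 passed the filter, and between APC cKO and APC/Bcat cKO mice 12 were higher and 7 lower, with a median of 0.03 and 0 passing an adjusted p of 0.05. The 2 most abundant, Cspg5 and the kinase Fyn, were at 97.3 ± 2.93 and 41.7 ± 6.87 FPKM in APC cKO and 102 ± 8.76 and 41.02 ± 4.38 in APC/Bcat cKO mice (SD, n = 4 each). These levels lay far above those of Pdgfra, Gpr17 and Cspg4, so the 2 genes need not report precursor cells alone. The 18 genes of cholesterol synthesis, a lipid that myelin needs in bulk, split evenly, with 9 higher and 9 lower and a median of 0.0040. Hmgcs1 and Fdps, the most abundant of them, were at 131 ± 13.1 and 71.2 ± 5.31 FPKM in APC cKO and 129 ± 8.82 and 69.95 ± 10.1 in APC/Bcat cKO mice (SD, n = 4 each). The smallest adjusted p of the cholesterol genes in this comparison was 0.137.

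Wnt genes known in the oligodendrocyte lineage and ligands and regulators of myelination were read as well. Of 12 such Wnt genes 10 passed the filter, and 8 had higher means in APC cKO than in APC/Bcat cKO mice (median 0.13), 3 of them at an unadjusted p under 0.05, where 4.15% of all genes were. The smallest adjusted p was 0.112. The most abundant, Apcdd1 and Daam2, were at 13.5 ± 2.58 and 9.66 ± 0.626 FPKM in APC cKO and 13.9 ± 2.17 and 10.3 ± 1.23 in APC/Bcat cKO mice (SD, n = 4 each). They were the only 2 of the 10 with a lower mean log2 level in APC cKO mice. The log2 differences of the 10 ran from -0.08 to 2.08. Of 23 ligands and regulators of myelination 13 were higher and 10 lower, with a median of 0.04. The most abundant were Id2, an inhibitor of differentiation, at 107 ± 6.58 and 122 ± 14.98 FPKM, and Lingo1, a neuronal and glial inhibitor of myelination, at 106 ± 12.1 and 114 ± 4.73 FPKM (SD, n = 4 each).

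The myelin genes varied together from mouse to mouse. Over the 16 libraries, which share their genotypes and the tissue cut, the correlation of each gene with the mean of the other structural genes is given as a description. Pearson's r was 0.96 for Mbp, 0.93 for Cldn11, 0.93 for Cnp, 0.91 for Mag and 0.91 for Mobp. With each genotype centred on its own mean these were 0.92, 0.86, 0.93, 0.79 and 0.83, so mice of 1 genotype also differed along the same line. It was over 0.8 in 12 of the 34 genes, 9 structural and 3 enzymes or carriers, namely Trf, Fa2h and Qdpr. It was under 0.3 in 7, namely Nkx6-2 (0.27), Cntn2 (0.26), Gsn (0.25), Nkx2-2 (0.19), Gpr17 (0.10), Cd9 (-0.11) and Pdgfra (-0.27). Sox10 and Olig2, at 0.56 and 0.59, lay between, and were at 0.30 and 0.35 once the genotypes were centred.

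**Figure D4:**
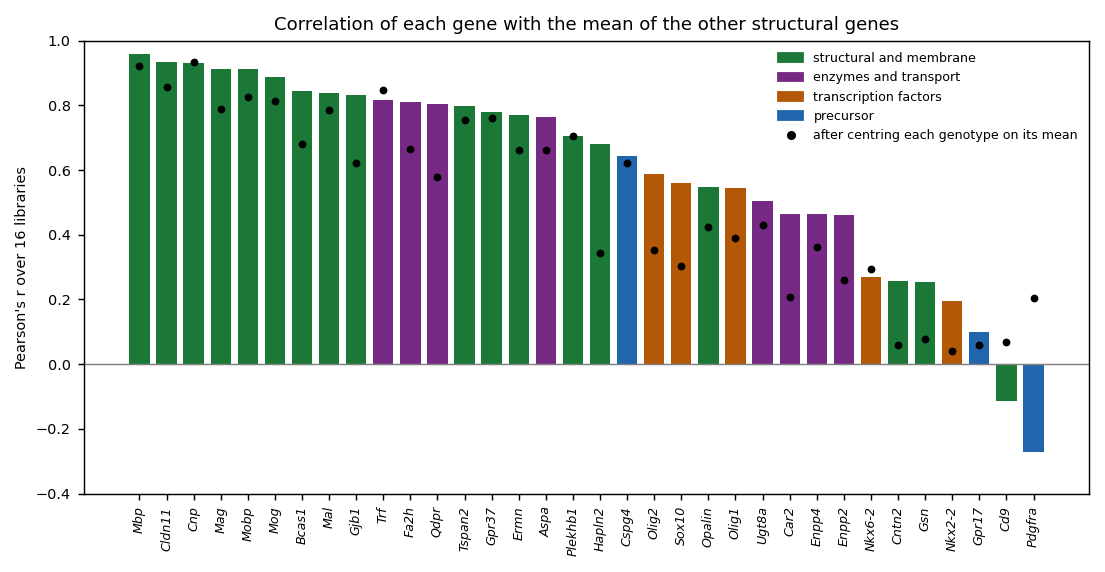
Pearson's r of each of the 34 genes with the mean of the other structural genes over 16 libraries (bars, colored by role) and after each genotype was centred on its mean (black points). Mbp has the highest r at 0.96, 12 genes are above 0.8, and Cd9 and Pdgfra are below 0.

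Among all other genes tested, the 10 most like the mean of the 18 structural genes over the 16 libraries included Prr18 (r = 0.92), Arsg (0.90), Ttyh2 (0.90), Urgcp (0.88), Ndrg1 (0.87), Evi2a (0.87), Pllp (0.83), a gene listed as 4-Sep (0.83), and 4632428N05Rik (0.83). Prr18, Evi2a and Pllp were in the list of other mature oligodendrocyte genes. Centred within genotypes, r of these 10 ran from 0.58 to 0.85.

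Markers of other cells were set beside these results. All 8 microglia markers had lower means in APC cKO than in APC/Bcat cKO mice, with a median of -0.17, and their summed level was 171 to 190.4 FPKM in APC cKO, 178 to 184 in control, 185 to 198 in Bcat cOE and 186 to 203 in APC/Bcat cKO mice. Their mean deviation had r = 0.72 with that of the structural genes, and 0.49 after centring. The part of microglia in the result was not tested. All 7 striatal markers had higher means in APC cKO mice (median 0.54), and their sum was 73.6 to 383 FPKM there and 78.6 to 271 in APC/Bcat cKO mice. With the striatal marker mean as a covariate, a choice made after the data were seen, the median of the 34 genes was -0.31, 18 were lower at an unadjusted p under 0.05 (7.02% of all genes in that fit), and 0 passed an adjusted p of 0.05. Of the 6 ependymal and choroid plexus markers that passed the filter 5 were higher in APC cKO mice, and the 7 in the table summed to 8.25 to 36.9 FPKM in APC cKO and 8.14 to 26.5 in APC/Bcat cKO mice. Summed neuron markers, led by Snap25 and Camk2a, were at 3686 to 4402 FPKM in APC cKO and 3918 to 4519 in APC/Bcat cKO mice, with 6 of 10 higher and 4 lower in APC cKO mice. Astrocyte markers, led by Aldoc and Slc1a2, were at 1084 to 1229 and 1048 to 1165 FPKM, with 7 of 9 higher. Endothelial markers, led by Ly6c1 and Cldn5, summed to 54.2 to 70.9 FPKM in APC cKO mice, 72.3 to 84.1 in controls and 70.6 to 88.2 in APC/Bcat cKO mice, and 6 of 7 were lower in APC cKO than in APC/Bcat cKO mice. Red blood cell genes, led by a beta globin and Hba-a1, summed to 241 to 495 in APC cKO and 227 to 299.95 FPKM in APC/Bcat cKO mice, with 4 of 4 tested higher in APC cKO mice. Their part in the result was not tested. Schwann cells make the myelin of peripheral nerves, and their genes Prx and Pmp2 had means over the 16 libraries of 0.244 and 0.0150 FPKM. Of 6 Schwann cell markers 3 passed the filter, with 2 higher and 1 lower in APC cKO mice, and Cdh19 and Egr2 had means of 3.77 and 3.16 FPKM. The summed level of the 6 was 7.30 to 11.6 FPKM in APC cKO and 4.397 to 11.01 in APC/Bcat cKO mice, and its part in the result was not tested.

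The separation of APC cKO from APC/Bcat cKO mice was of similar size when single libraries were left out. Without APC/Bcat cKO replicate 4 the median of the 34 differences was -0.27, and 16 genes were lower at an unadjusted p under 0.05 (4.19% of all genes in that fit). Leaving out each of the 16 libraries in turn gave medians from -0.33 to -0.25, and 0 to 2 genes at an adjusted p under 0.05. The count was 2 without Control replicate 4 or Bcat cOE replicate 3, which enter only the estimate of the spread, and 1 without APC cKO replicate 3, Bcat cOE replicate 2 or APC/Bcat cKO replicate 3. Sex was read from Xist and Y-linked genes in 2 female libraries, Control replicate 1 and APC cKO replicate 1, and 14 male ones. All Bcat cOE and APC/Bcat cKO libraries were thus male. With sex as a covariate the median was -0.28, and 15 genes were lower at an unadjusted p under 0.05 (4.84%). Across the 34 genes the log2 difference had r = 0.27 with the log2 length of the longest transcript, a value across genes that are not independent. Differences thus tended to be more negative in genes with shorter transcripts. Long transcripts were low in APC/Bcat cKO replicates 2 and 4, and the part of transcript length in the result was not tested.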

How the data were processed

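RNA from the prefrontal cortex of 16 mice, 4 per genotype, was sequenced from stranded polyA libraries (1 library per mouse, as far as the labels tell). Per the submitters' processing notes and the paper's methods, the authors aligned reads to mm10 with TopHat2 2.0.10 and made gene values with Cuffdiff 2.1.1. The deposited table holds log2 values, read as log2(FPKM + 1). Turned back on that base, FPKM times the longest annotated transcript in kilobases summed to 1254520 to 1330680 per library. Natural logs would give 11022500 to 12133000, far above the scale of FPKM. All 16 value columns were used. Fragment counts are not given, so depth is unknown.

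Values were compared with limma 3.58.1 (R 4.3.3) on log2(FPKM + 0.1), in 1 model of the 4 genotype means with a trend in the prior variance, over the 13978 genes whose mean reached 0.5 FPKM, with Benjamini-Hochberg adjustment over all of them. Every adjusted and unadjusted p is two-sided and from this fit. Log2 differences are on that scale, which understates the change of low genes. The scripts were tested on simulated data. Python 3.11.15 with matplotlib 3.10.9 drew the plots, and pandas 2.3.3, numpy 2.4.6 and scipy 1.17.1 served for the tables. Replicates are numbered within genotypes, and p-values measure the spread between these libraries. Gene models came from GENCODE M21 and promoters from RefSeq, both on mm10. Symbols absent from the table were matched through RefSeq synonyms. The counting of overlapping genes is not stated: exons of 14 of the 34 genes (Mobp, Cnp, Ermn, Tspan2, Cd9, Bcas1, Enpp2, Trf, Qdpr, Olig1, Nkx2-2, Nkx6-2, Pdgfra and Gpr17) overlap another annotated gene, so their values may hold its reads. Only in Mobp, Trf and Pdgfra is an overlapping gene on the same strand. The libraries were stranded, but whether the strand was used in counting is not stated.

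The genes, the role groups and the other lists were chosen with earlier results of these data known. All 34 genes were described by role. From every other list the counts, any gene past the threshold and the 2 with the highest mean were named, together with the 10 genes most correlated with the structural genes. Some genes that this rule or the lists hold are not reported here. Cell lists were neurons, astrocytes, microglia, endothelial, ependymal and choroid plexus, striatal, Schwann and red blood cells. Alternatives were another pseudocount, other filters, quantile and median-of-ratios scaling, no trend, sex, 2 replicate blocks, the striatal markers, the 2 groups alone and leaving out each library.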

Additional observations from a re-analysis of the deposited data

Results flagged for a closer look

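Each gene was checked in each genotype for a mouse that stood apart, by dividing its gap to the nearest mouse by the whole range (Dixon's ratio). Of 136 groups 6 were past the 95% critical value for 4 samples, where chance gives about 1 in 20, or 6.8. Cd9 was at 52.0 FPKM in APC/Bcat cKO replicate 2 and at 40.7 to 42.5 in the other 3 mice (ratio 0.840). Gsn, an actin-severing protein, was at 24.4 FPKM in Bcat cOE replicate 1 against 18.6 to 19.4 (0.863). Fa2h was at 7.45 FPKM in Bcat cOE replicate 2 against 5.27 to 5.51 (0.892). Enpp4 was at 8.18 FPKM in APC cKO replicate 3 against 5.72 to 5.89 (0.928). Sox10 was at 6.87 FPKM in APC cKO replicate 1 against 6.66 to 6.69 (0.856), a narrow range in all. Olig2 was at 9.41 FPKM in Control replicate 1 against 7.86 to 7.998 (0.912).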

How the results depend on the processing

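In none of 175 alternative values did a median of the 34 genes move by more than the spread between mice, a wide limit. Within genotypes the SD between mice of the mean of the 34 genes was 0.065 to 0.14, beside medians such as 0.017 for Bcat cOE against Control. Leaving out 1 of 4 mice moves a group mean by only part of that mouse's deviation. The limit was thus hard to pass and does not show that the medians are stable. That of Bcat cOE against Control changed sign (-0.06 to 0.08), and that of Bcat cOE against APC/Bcat cKO ran from -0.16 to -0.03. In all, 203 of 223 alternative counts of genes past the threshold stayed at 0. The 20 others were above 0. At an unadjusted p under 0.05 the counts were 11 for APC cKO against Control, 2 for Bcat cOE against Control, 6 for APC/Bcat cKO against Control, 20 for APC cKO against APC/Bcat cKO, 7 for Bcat cOE against APC/Bcat cKO, 12 for APC cKO against Bcat cOE, 12 for the raised lines against the other groups and 14 for any difference. Leaving out single libraries gave 0 to 2 for APC cKO against APC/Bcat cKO and 0 in the other comparisons of pairs. It was 2 without Control replicate 4 (Mbp and Gjb1) and without Bcat cOE replicate 3 (Mag and Mbp), and 1 without APC cKO replicate 3 (Hapln2), Bcat cOE replicate 2 (Mag) or APC/Bcat cKO replicate 3 (Mag). Control and Bcat cOE mice enter that comparison only through the shared spread. Over 27 settings the adjusted p of Mag ran from 0.0129 to 0.187 and that of Mbp from 0.000721 to 0.205.

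Over all genes tested, libraries with the same number in their titles did not deviate together. The mean correlation of their deviations was -0.04 to -0.01, and at most 2 of 6 pairs per number were over 0.1. A value over all genes does not show whether the 34 genes deviated together. With that number as a replicate block the counts were 3 for APC cKO against APC/Bcat cKO (Mag, Mbp and Mog), 1 for the raised lines and 1 for any difference. The numbers in the table's header gave 4 sets of 1 library per genotype, a block chosen after the data were seen. In 1 set, Control replicate 3, APC cKO replicate 4, Bcat cOE replicate 3 and APC/Bcat cKO replicate 3, the structural genes deviated together. Their mean deviation there was the lowest of each genotype, at -0.19, -0.31, -0.20 and 0.10. In another set, Control replicate 4, APC cKO replicate 3 and APC/Bcat cKO replicate 4 had the highest of their genotypes and Bcat cOE replicate 4 the second highest. With these sets as a block the counts were 1 for APC cKO against Control (Mbp), 4 for APC cKO against APC/Bcat cKO (Mag, Mbp, Mobp and Bcas1), 1 for the raised lines and 1 for any difference. No label says that these numbers mark a shared litter, batch or day, and no other count of genes past the threshold changed with a block. Many counts from a block or a left-out library, here and above, lack the share of all genes in the same fit. Such counts do not show whether these genes alone moved. No log2 difference printed for a gene changed sign. Over all 34 genes at most 8 signs changed, in Bcat cOE against Control, and at most 1 in APC cKO against APC/Bcat cKO.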
